A study of Mus musculus with 2 samples.

Results

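The enzymes examined here remove superoxide and peroxides from the cell: catalase (Cat), the superoxide dismutases Sod1, Sod2 and Sod3, the glutathione peroxidases Gpx1 and Gpx4, and the peroxiredoxins Prdx1, Prdx2, Prdx3 and Prdx5. Members were taken by gene symbol from the platform annotation, with all their probe sets, and the list holds 10 genes. Of these 10 genes, 8 had at least 1 probe set assigned to them alone, and all 8 were measured, out of 13041 measured among 18193 named genes. All 5 probe sets of Prdx1 are assigned jointly to Prdx1 and the pseudogene Gm21399, so no Prdx1 value is given, and no probe set is named for Prdx5 here.

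The samples were livers of Ppara-null and wild-type mice, both male 129SvEJ animals aged 8 weeks. Both genotypes ate chow with 0.2% fenofibrate for 7 days, so the drug is shared by the groups and its effect is not measured by itself. Each genotype is represented by a pool of liver RNA from 3 mice on 1 Affymetrix array, which leaves 1 sample per group, no replicate error and no test. Every value below is a single measurement, and the number of arrays limits the precision. The labels do not say how the Ppara gene was disrupted.

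PPARα, encoded by Ppara, is the nuclear receptor through which fenofibrate acts in hepatocytes. In rodents its activation enlarges the peroxisome compartment and raises fatty acid oxidation there, and the oxidases of that pathway pass electrons straight to oxygen and release hydrogen peroxide. Catalase breaks hydrogen peroxide down inside peroxisomes. Superoxide dismutases turn superoxide into hydrogen peroxide, and the glutathione peroxidases and peroxiredoxins reduce peroxides with electrons drawn from glutathione or thioredoxin. In rodents, peroxisome proliferators are known to raise peroxisomal oxidation much more than catalase.

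The median over all probe sets other than controls, 269.4 for Ppara-null and 287.8 for wild type, served as the floor of an array, to which dimmer signals were raised. A gene was counted as measured when its brightest probe set reached the floor on at least 1 array, and that probe set represents the gene. Ratios are log2 of Ppara-null over wild type, and a gene was called at 2-fold or more. The Ppara probe sets gave 3414, 2953 and 1551 in the null, against 7957, 5833 and 4312 in wild type, so all 3 were lower in the null. Different probe sets of 1 gene had log2 ratios with a pooled SD of 0.42 over all genes, and of 0.22 among probe sets at least 10 times the floor on both arrays, which describes scatter within this pair of arrays and leaves out differences between mice. Both SDs are taken around the mean ratio of each gene, so they set no cutoff for a distance from 0. Directions are relative to the deposited scaling. The 18 hybridization controls were brighter on the null array by a median of 0.38 on the log2 scale (0.12 to 0.73), and scaling to them moves the median of all measured genes to -0.38, against -0.005 as deposited. The ratio of 3' to 5' signal, a sign of RNA quality, was 2.27 in null and 1.89 in wild type for beta-actin, and 0.74 in null and 0.68 in wild type for GAPDH.

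None of the 8 measured members differed by 2-fold between the genotypes. The background over the whole array was 2.80% of measured genes called higher in Ppara-null liver and 4.99% called lower, so a count of 0 among 8 genes lies near the background. Higher genes made up 35.9% of these calls, or 5.84% after scaling to the hybridization controls. The members' log2 ratios ran from -0.43 for Gpx4 to 0.37 for Cat, with a median of 0.08 against -0.005 for all measured genes. Above 0 were 5 members and below 0 were 3, while over all measured genes 49.6% lay above 0 and 50.4% below. The median was -0.01 after quantile normalization and -0.30 after scaling to the hybridization controls, so its direction depends on the scaling. Among the 10060 genes above the floor on both arrays, the middle 90% lay between -0.88 and 0.78, and all 8 members lay inside that range. Among the 2689 genes at least 10 times the floor on both arrays, it was narrower, between -0.65 and 0.63. The members that bright lay inside this range too.

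The members carry 19 probe sets of their own, of which 18 were above the floor on both arrays and 1 was under it on both. Of the 18, 11 were higher in the null and 7 were lower.

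**Figure D1:**
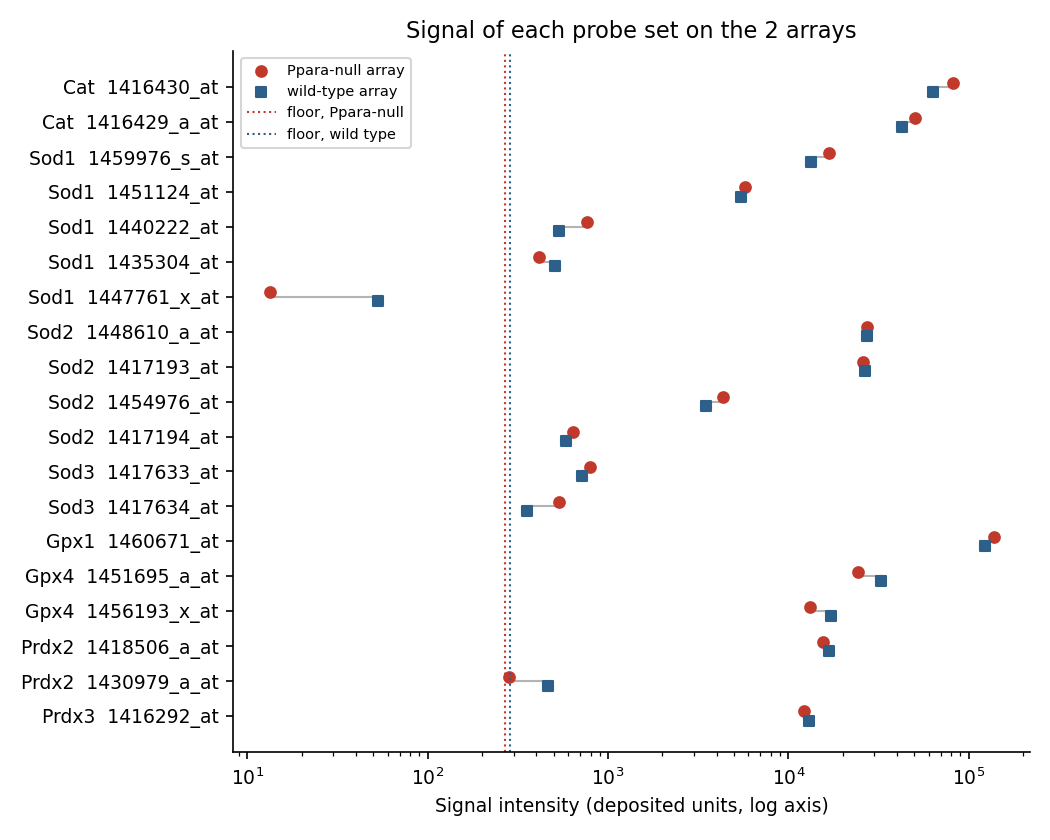
Signal intensity of each of the 19 probe sets of the 8 measured members on the Ppara-null array (red circles) and the wild-type array (blue squares), on a log axis, with each array's floor dotted. The 2 symbols lie close together for most probe sets, and the dimmest Sod1 probe set is the only one under both floors.

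Catalase, the peroxisomal enzyme, had the largest ratio towards the null among the members' brightest probe sets as deposited. Sod1 exceeded it after quantile normalization (0.36 against 0.33 for Cat), and Sod3 did with the median over probe sets (0.37 against 0.30 for Cat). Its probe set 1416430_at gave 81848 in Ppara-null liver, against 63369 in wild-type liver, which is 1.29-fold higher in the null. The other, 1416429_a_at, gave 50491 in null and 42891 in wild type, 1.18-fold higher. Both catalase probe sets thus pointed the same way, with log2 ratios of 0.37 and 0.24. Of the genes above the floor on both arrays, a set that includes much dimmer genes, 40.8% were at least as far from equality as catalase. After scaling to the hybridization controls the catalase log2 ratio was -0.01. The catalase promoter is shown because catalase acts in the peroxisome, and the Sod1 and Gpx4 promoters because these genes and catalase had the 3 ratios farthest from 0.

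Each window runs from 250 bases before to 50 bases after an annotated RefSeq start on GRCm38.p6, 5′ to 3′ on the gene's strand, and holds 300 bases. Capitals mark matches to AGGTCA, the half-site that PPARα and other nuclear receptors bind in direct repeats, or to TGACNNNGC, the core of the antioxidant response element bound by Nrf2, on either strand. The catalase window is chr2:103485104-103485403 on the minus strand, and the Sod1 window is chr16:90220512-90220811 on the plus strand. The Gpx4 window is chr10:80053761-80054060 on the plus strand, the most downstream of the 4 annotated Gpx4 starts. It is the only Gpx4 window with a match, and which start gives the transcript measured in liver was not tested.
Cat: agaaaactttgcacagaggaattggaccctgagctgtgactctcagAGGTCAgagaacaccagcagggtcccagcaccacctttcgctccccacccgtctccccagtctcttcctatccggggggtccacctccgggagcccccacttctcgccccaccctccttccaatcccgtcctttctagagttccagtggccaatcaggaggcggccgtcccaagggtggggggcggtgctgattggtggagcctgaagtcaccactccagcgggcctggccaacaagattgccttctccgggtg
Sod1: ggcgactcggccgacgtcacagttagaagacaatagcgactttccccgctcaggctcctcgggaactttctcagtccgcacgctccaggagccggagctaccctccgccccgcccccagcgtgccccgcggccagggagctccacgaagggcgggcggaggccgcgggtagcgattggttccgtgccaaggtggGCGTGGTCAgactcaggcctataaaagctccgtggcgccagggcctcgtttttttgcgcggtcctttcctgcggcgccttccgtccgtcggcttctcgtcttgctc
Gpx4: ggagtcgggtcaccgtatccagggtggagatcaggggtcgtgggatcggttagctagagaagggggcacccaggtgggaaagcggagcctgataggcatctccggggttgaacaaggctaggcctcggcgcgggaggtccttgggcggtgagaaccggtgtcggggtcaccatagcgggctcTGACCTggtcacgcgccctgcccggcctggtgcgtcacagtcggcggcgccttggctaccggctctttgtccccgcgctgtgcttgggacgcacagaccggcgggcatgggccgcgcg

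AGGTCA, or its reverse complement TGACCT, was found in the windows of Cat (first base at position -204 from the start), Prdx3 (-190) and the Gpx4 window shown (-68), which makes 3 of the 12 windows of 9 members. Of all 32851 promoter windows, 16.3% hold it. A direct repeat of AGGTCA with 1 base between the copies, present in 0.0396% of all windows, was in none of the 12, and neither was a relaxed repeat that allows any base at the T of each copy, present in 0.381%. TGACNNNGC or its reverse complement was found in Sod1 (-56) and Prdx1 (-133), and in 12.4% of all windows. The windows of 15 genes of the list of known PPARα targets likewise held 0 matches to either repeat and 5 of their 16 windows held AGGTCA. A match is a description of letters only, and its absence refers only to these windows. The 12 windows include that of Prdx5, and none was found for Sod3.

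The 3 superoxide dismutases were within 1.3-fold at their brightest probe sets. Sod1, the copper and zinc enzyme of the cytosol, gave 16821 in null and 13427 in wild type at 1459976_s_at, a log2 ratio of 0.33. At the next brightest probe set, 1451124_at, it gave 5717 in null and 5461 in wild type, a log2 ratio of 0.07. The suffix _s_at marks a probe set that can match transcripts of more than 1 gene, and without such probe sets the Sod1 ratio is the lower of these values. Of its dim probe sets, 1440222_at gave 765.1 in null and 538.3 in wild type, while 1435304_at gave 415.6 in null and 510.2 in wild type. The fifth, 1447761_x_at, was under the floor on both arrays, with 13.3 in null and 53.1 in wild type. Above both floors, the Sod1 log2 ratios thus ran from -0.30 to 0.51, with 3 of 4 above 0. The null signal of 1435304_at, the probe set at the lower end, lay under the brightest Bacillus control of that array (422.4), a probe set for bacterial transcripts that mouse RNA lacks. After scaling to the hybridization controls that of the brightest was -0.05.

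Sod2, the manganese enzyme of the mitochondrial matrix, was nearly equal in both genotypes. The brightest probe set, 1448610_a_at, gave 27437 in null and 27363 in wild type, a log2 ratio of 0.004, and 1417193_at gave 25807 in null and 26709 in wild type, a log2 ratio of -0.05. The dimmer 1454976_at gave 4369 in null and 3474 in wild type, and 1417194_at gave 639.6 in null and 584.0 in wild type. The brightest pair of Sod2 probe sets straddled equality, and 1454976_at alone had a log2 ratio of 0.33.

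Sod3, the secreted copper and zinc enzyme, was dim on both arrays. It gave 795.0 in null and 714.7 in wild type at 1417633_at, a log2 ratio of 0.15, and 532.6 in null and 356.7 in wild type at 1417634_at, a log2 ratio of 0.58. Both probe sets were higher in the null at signals 1.24 to 2.95 times the floor, and with the floor at the 75th percentile Sod3 was not measured.

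The glutathione peroxidases pointed in opposite directions. Gpx1, the abundant selenoenzyme that reduces hydrogen peroxide in cytosol and mitochondria, gave 137323 in null and 123459 in wild type at its single probe set 1460671_at, 1.11-fold higher in the null. Its log2 ratio of 0.15 turned to -0.03 after quantile normalization.

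Gpx4, the selenoenzyme that reduces lipid hydroperoxides in membranes, was the member farthest towards wild type. It gave 24323 in null and 32756 in wild type at 1451695_a_at, which is 25.7% lower in the null. At 1456193_x_at it gave 13211 in null and 17167 in wild type, 23.0% lower. The 2 probe sets matched in direction and nearly in size, with log2 ratios of -0.43 and -0.38. The direction held under all 11 scalings, floors and probe set choices computed (-0.81 to -0.39). The floors among these could not change it, since both Gpx4 probe sets lay far above them. Omission of _x_at and _s_at probe sets kept the brightest one and so could not change it either. Of the genes above the floor on both arrays, a set that includes much dimmer genes, 34.4% lay at least as far from equality. Among the genes at least 10 times the floor on both arrays, the Gpx4 ratio lay inside the middle 90% (-0.65 to 0.63).

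Prdx2 and Prdx3 were slightly lower in the null, while Prdx4, no member of the set, is given further on and had the opposite sign. Prdx2, a cytosolic peroxiredoxin that is abundant in red cells, gave 15564 in null and 16894 in wild type at 1418506_a_at, a log2 ratio of -0.12. Its second probe set, 1430979_a_at, gave 281.1 in null and 467.9 in wild type, a log2 ratio of -0.74, but the null value lay under the brightest Bacillus control on that array. With the median over probe sets, Prdx2 moved to -0.43 because of that dim probe set. Prdx3, the peroxiredoxin of the mitochondrial matrix, gave 12286 in null and 13027 in wild type at 1416292_at, 5.69% lower in the null. Both Prdx2 and Prdx3 had negative ratios under all 11 settings, and at their bright probe sets, as deposited, these were -0.12 and -0.08. The floors among these settings could not change the ratios of probe sets this bright. Prdx3 has a single probe set, so no choice of probe set could change its ratio. Omission of _x_at and _s_at probe sets removed none of Prdx2 or Prdx3.

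**Figure D2:**
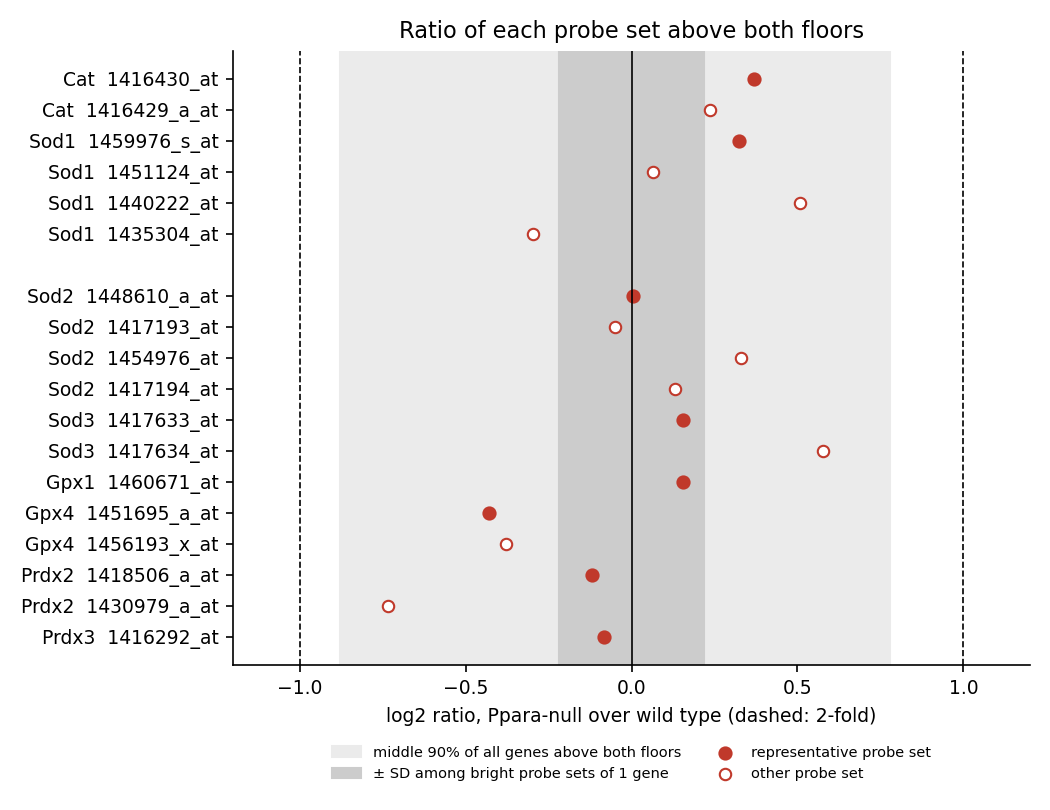
Log2 ratio of Ppara-null over wild type for the 18 probe sets of the members above both floors, with filled symbols for the probe set that represents the gene and open symbols for the others. Dashed lines mark 2-fold, and the light band the middle 90% of all genes above both floors. The dark band is ± 0.22, the SD among bright probe sets of 1 gene. It is drawn for scale and is no cutoff for a distance from 0. All 18 lie between the dashed lines, from -0.74 to 0.58.

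Because catalase acts on hydrogen peroxide made in the peroxisome, its value stands beside the genes that make it. In a list of peroxisomal oxidases with 8 measured genes, 1 was at least 2-fold lower in the null and 0 were higher, with a median of 0.16 that became -0.22 after scaling to the hybridization controls. Hao2, a hydroxyacid oxidase, gave 210.6 in null and 1558 in wild type and was at least 5.78-fold lower in the null, a bound because the null signal was under the floor. Pipox, the pipecolic acid oxidase, gave 21238 in null and 13438 in wild type, a log2 ratio of 0.66. Acox3 gave 610.0 in null and 419.7 in wild type, a log2 ratio of 0.54. The urate oxidase Uox had a log2 ratio of 0.30, close to that of catalase, and so did Phyh, at 0.38, a hydroxylase of the same compartment that was put in the list although it is no oxidase. Uox and Phyh were chosen after their values were seen.

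The list of known PPARα targets served as a check of the contrast. Of 18 measured targets, 17 were at least 2-fold lower in the null and 0 higher, with a median log2 ratio of -2.29. Earlier results of these data were known when this list was drawn up, so it is no independent evidence. Cyp4a14, which hydroxylates fatty acids at the omega end, gave 44.0 in null and 104679 in wild type, at least 389-fold lower in the null. The peroxisomal bifunctional enzyme gene Ehhadh gave 13156 in null and 98088 in wild type, 7.46-fold lower, and Ech1, an enoyl-CoA isomerase, was 7.98-fold lower. Vnn1, a pantetheinase, was 172-fold lower, with a null signal (307.4) under the brightest Bacillus control of that array, and the fatty acid transporter Cd36 17.8-fold lower. The other called targets ran from Angptl4, 2.003-fold lower, to Aldh3a2, 8.35-fold lower, with Acot3, Acot1, Slc25a20, Acadl, Pdk4, Pex11a, Acaa1b, Cpt2 and Plin2 between them, and Fgf21 was at least 3.50-fold lower. The remaining target was Acadm, at a log2 ratio of -0.71. On the same 2 arrays, then, catalase was 1.29-fold higher in the null while Ehhadh was 7.46-fold lower, a difference for which no test could be had.

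Genes of peroxisomal protein import and division, only some of which act in the import of matrix proteins such as catalase, showed 1 of 12 measured genes at least 2-fold lower in the null. None was higher at that size, and the median was -0.13. Pex11a, which acts in peroxisome division and is also one of the target list, gave 6488 in null and 22457 in wild type, 3.46-fold lower. Pex19 (log2 ratio -0.97), the carrier of peroxisomal membrane proteins, and its docking factor Pex3 (-0.79) followed, each with the same sign at all their probe sets. Pex5, the receptor that imports matrix proteins including catalase, had a log2 ratio of 0.10 and was named after its value was seen.

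Of the 8 other peroxidases listed, Prdx6 had no probe set assigned to it alone and was not read. The rest were mostly too dim to read. Of 7 with a probe set, Prdx4 and Gpx7 were measured. Prdx4, the peroxiredoxin of the endoplasmic reticulum, had a log2 ratio of 0.20 and Gpx7 -0.58. Gpx2, Gpx3, Gpx5, Gpx6 and Gpx8 were under the floor on both arrays.

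The thioredoxin, glutathione and NADPH lists cover the systems that supply electrons to these enzymes. Each had 1 or 2 genes called lower in the null and 0 called higher. The lists also hold genes that do not supply electrons themselves. Of the called genes, Sesn1, Oplah, Ggct and Me1, only Me1 makes NADPH. The background over all measured genes was 4.99% lower and 2.80% higher. The share called lower was above that background in each list, but it rests on these small counts. In the thioredoxin and glutaredoxin list, 1 of 16 measured genes was at least 2-fold lower in the null and 0 were higher, with a median of -0.09. Sesn1, a sestrin, gave 944.2 in null and 2231 in wild type at its brightest probe set, 2.36-fold lower, yet 1 of its 3 probe sets above both floors had the opposite sign, and with the median over probe sets the list had 0 such genes. Glrx3 was at least 1.68-fold lower, below the call, and Sesn3 had a log2 ratio of 0.72. Thioredoxin itself, Txn1, gave 35782 in null and 45363 in wild type, a log2 ratio of -0.34, and this gene was chosen after its value was seen.

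In glutathione synthesis and reduction, where 11 genes were measured, 2 were at least 2-fold lower in the null and 0 higher, with 8 of 11 above 0 and a median of 0.41 that became 0.04 after scaling to the hybridization controls. The 2 genes lower in the null were Oplah, the 5-oxoprolinase of glutathione recycling, with 1431 in null and 5003 in wild type (3.50-fold), and Ggct, the gamma-glutamylcyclotransferase, with 325.1 in null and 721.6 in wild type (2.22-fold). The null signal of Ggct lay under the brightest Bacillus control of that array. Chac1, an enzyme that degrades glutathione, had a log2 ratio of 0.69. Glutathione reductase, Gsr, named after its value was seen, had -0.59, with the same sign at both probe sets. Gclm and Gclc, subunits of the enzyme that starts glutathione synthesis and also members of the Nrf2 list, had 0.51 and 0.15, both named after their values were seen.

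Among enzymes that make NADPH, which keeps both systems reduced, 1 of 10 measured genes was at least 2-fold lower in the null and 0 were higher, with a median of -0.11. Me1, the cytosolic malic enzyme, gave 12173 in null and 49442 in wild type, 4.06-fold lower in the null at its brightest probe set. The cytosolic and peroxisomal isocitrate dehydrogenase Idh1 had a log2 ratio of -0.48 and Aldh1l1, a folate enzyme, 0.71.

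Of 13 measured sources of superoxide or hydrogen peroxide outside the peroxisome, 1 was at least 2-fold higher in the null and 0 lower, with a median of -0.28. Nox4, an NADPH oxidase that releases hydrogen peroxide, gave 5665 in null and 2505 in wild type, 2.26-fold higher, and its other probe set had the same sign. After scaling to the hybridization controls, or with the median over probe sets, Nox4 was below 2-fold. Maoa, a mitochondrial amine oxidase, had a log2 ratio of -0.82 and the aldehyde oxidase Aox1 -0.54.

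Supply of metals and selenium showed 0 of 16 measured genes at 2-fold in either direction, with a median of -0.04, or 0.01 after median centring. The manganese and zinc importers Slc39a14 and Slc39a8 had log2 ratios of 0.83 and 0.73, although the 2 Slc39a8 probe sets differed in sign. The copper exporter Atp7b had -0.78. Ccs, the copper chaperone that loads Sod1, had -0.18, named after its value was seen. Selenop, the plasma selenium carrier, and Sephs2, which makes the selenium donor for Gpx1 and Gpx4, had 0.32 and 0.29, likewise named after their values were seen.

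Of 16 measured genes of the Nrf2 pathway, the main transcriptional response to oxidants, 1 was at least 2-fold lower in the null and 0 higher, with a median of 0.04 that became -0.34 after scaling to the hybridization controls, -0.02 after quantile normalization and -0.01 after loess. Abcc4, an efflux transporter, gave 222.1 in null and 1034 in wild type, at least 3.84-fold lower. Nqo1, a quinone reductase widely used as a readout of Nrf2, gave 669.0 in null and 1227 in wild type, a log2 ratio of -0.87. Osgin1 had 0.66. The heme oxygenase Hmox1 had -0.08 and the transcription factor gene Nfe2l2 -0.15, both named after their values were seen.

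**Figure D3:**
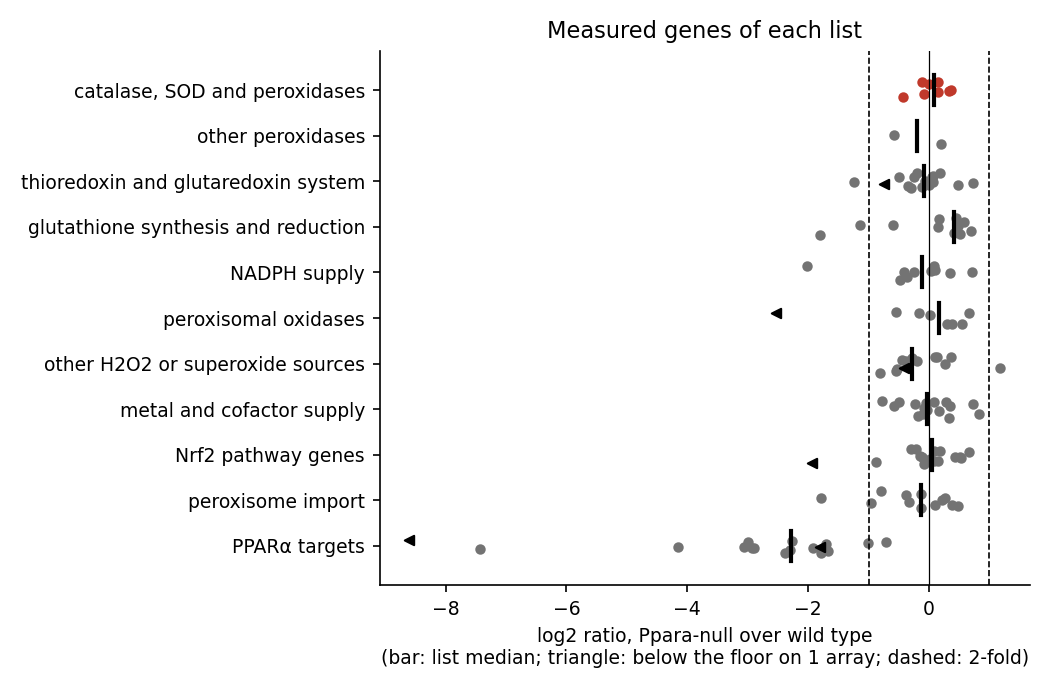
Log2 ratio of Ppara-null over wild type for the measured genes of each list, with catalase, superoxide dismutases and peroxidases in red at the top, list medians as black bars, 2-fold as dashed lines and triangles for genes under the floor on 1 array. The PPARα targets lie far to the left, with a median of -2.29. The medians of the other lists run from -0.28 (other oxidant sources) to 0.41 (glutathione synthesis and reduction), and single genes in several of them lie past 2-fold.

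Markers of cell types moved on the same arrays. All 8 measured hepatocyte markers were higher in the null, with a median log2 ratio of 0.31 as deposited (-0.07 after scaling to the hybridization controls), beside 0.37 for catalase and 0.33 for Sod1. Their summed signal was 1143614 in null and 958359 in wild type. Of 8 measured markers of Kupffer cells and other macrophages, 7 were higher in the null, with a median of 0.63 (0.25 after that scaling) and a summed signal of 23383 in null and 15875 in wild type, and Cd5l was at least 2-fold higher (4052 in null, 1910 in wild type). Of the 3 red cell genes with a probe set, Alas2 gave 7033 in null and 4190 in wild type, while Hba-a1, under the floor in null, gave 250.8 in null and 332.6 in wild type, and Slc4a1, under the floor in wild type, gave 475.2 in null and 193.0 in wild type. Red cells hold catalase, Gpx1 and Prdx2. The part of these cells in the members' values was not tested, and in pooled tissue RNA fewer cells of a type and less RNA per cell cannot be told apart. Stellate cell markers had, as deposited, a median of 0.32 (7 measured), endothelial markers -0.05 (6, with Pecam1 at least 2-fold lower), cholangiocyte markers 0.24 (3), lymphocyte markers 0.42 (3) and neutrophil markers -0.13 (2).

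The members' ratios were recomputed under other scalings, floors and choices of probe set. No member reached 2-fold under any of them, and none reached 1.5-fold as deposited. The largest size over all settings was 0.81 for Gpx4 after scaling to the hybridization controls, where catalase stood at -0.01 and all 8 members were below 0. The gap between catalase and Gpx4 was of the same size there as in the deposited scaling, since that scaling shifts all ratios alike.

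**Figure D4:**
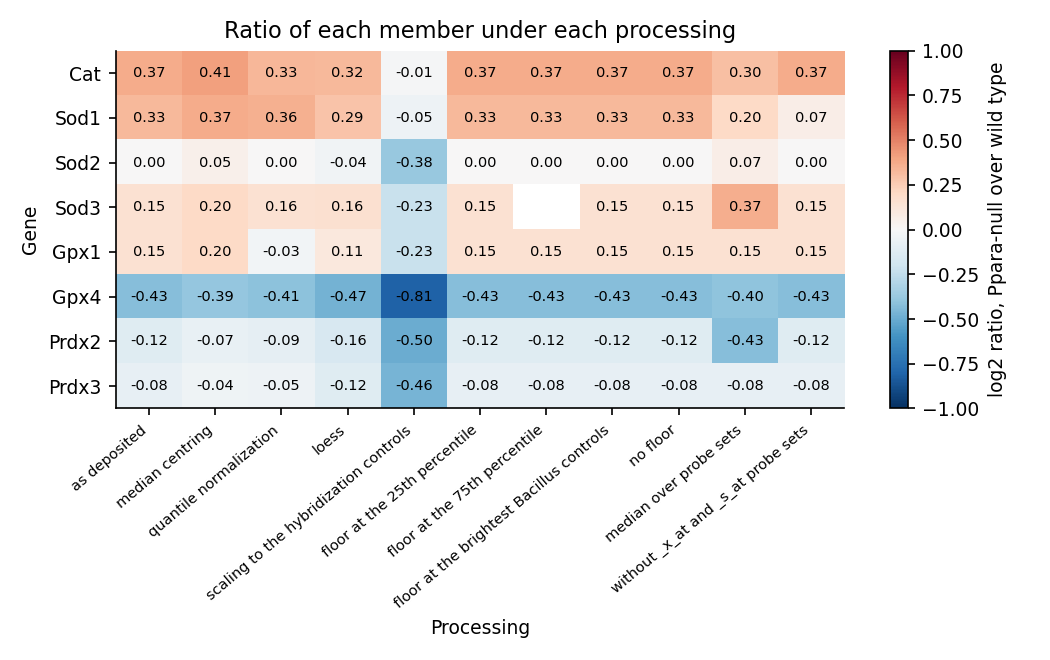
Log2 ratio of Ppara-null over wild type of each measured member (rows) as deposited and under 10 other settings (columns), with the value printed in each cell and colour from blue (lower in null) to red (higher in null). Gpx4, Prdx2 and Prdx3 are below 0 in every column, while catalase, Sod1, Sod2, Sod3 and Gpx1 turn negative after scaling to the hybridization controls, Gpx1 also after quantile normalization and Sod2 also after loess. The empty cell is Sod3, not measured with the floor at the 75th percentile.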

How the data were processed

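Liver RNA of 3 pooled mice per genotype was measured on 1 array each, with 45101 probe sets, 64 of them controls. The deposited values are linear signal intensities, which the authors made with Affymetrix's statistical algorithm and scaled to 1000 on each array, per the labels. The mean trimmed by 2% at each end was 1000.01 for both genotypes. Software version: not given in the sources used here. Symbols came from the platform annotation of 2016: of 45037 probe sets, 34945 had 1 symbol, 932 had several and 9160 were unnamed here. Only the first were used. The deposited intensities were not rescaled before floors, log2 ratios and calls were computed (Python 3.11.15, pandas 2.3.3), and the procedure was tested on simulated data. Loess used statsmodels 0.14.6 with a span of 0.3. The members and lists were chosen with earlier results of these data known. Named genes were all members, the 3 largest ratios of each list and any list gene at 2-fold. Other genes were named after their values were seen.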

Additional observations from a re-analysis of the deposited data

How the results depend on the processing

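The count of members at 2-fold was 0 in each direction under every other scaling, floor and choice of probe set. The counts at 1.5-fold and at 3-fold were 0 too. The 3-fold count could not differ once no member reached 2-fold, and the floors could not change the ratios of the bright members. No member's log2 ratio moved by more than the SD among probe sets of 1 gene (0.42). Scaling to the hybridization controls moved all 8 by 0.38, more than the SD of 0.22 among bright probe sets, and turned 5 negative. No paired analysis was possible because each genotype has 1 array, and no replicate could be left out for the same reason. The counts over all genes moved most. At least 2-fold higher and lower in the null were 365 and 651 genes as deposited, 109 and 1759 when scaled to the hybridization controls, 1650 and 2336 for floors at the 25th percentile, 98 and 157 at the 75th, and 2177 and 3096 with no floor. With floors at the brightest Bacillus controls (422.4 in null, 316.5 in wild type) 297 genes were lower and 303 higher. At 1.5-fold 1439 genes were higher and 1925 lower, and at 3-fold 58 and 132. Higher genes made up 35.9% of calls as deposited.

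Counts in the small lists moved by 1 or 2 genes, and the cause was not tested. Scaling to the hybridization controls gave 2 lower genes in the thioredoxin list, 2 in the Nrf2 list, 3 in peroxisome import, 1 in metal supply, and 1 lower and 0 higher among the other oxidant sources. Quantile normalization and loess each gave 2 lower import genes. Floors at the 25th percentile gave 1 higher and 2 lower other peroxidases, 2 lower in the thioredoxin list, 2 lower in NADPH supply, 1 higher peroxisomal oxidase and 1 higher import gene. No floor gave the same except for 2 higher other peroxidases and 1 higher Nrf2 gene. Floors at the 75th percentile left 1 lower glutathione gene and 0 lower peroxisomal oxidases and Nrf2 genes, and Bacillus floors left 1 lower glutathione gene. The median over probe sets gave 0 lower thioredoxin genes, 1 higher NADPH gene, 0 higher other oxidant sources and 1 lower metal gene, and omission of _x_at and _s_at probe sets gave 0 lower thioredoxin genes. At 1.5-fold there was 1 higher gene in each of the thioredoxin, glutathione, NADPH, peroxisomal oxidase and Nrf2 lists and 2 in metal supply, with 2 lower thioredoxin, 3 lower glutathione, 1 lower other source, 1 lower metal, 2 lower Nrf2 and 3 lower import genes. At 3-fold 0 thioredoxin genes and 1 glutathione gene were lower, and 0 other sources were higher.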
